A study of Mus musculus with 8 samples.

Results

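The genes described here are those of the early secretory pathway whose mouse symbols belong to the COPI and COPII vesicle coats, the SEC genes, the ARF GTPases, the p24 cargo receptors and the TRAPP tether. They were taken by symbol: every gene starting with Sec plus a number, Sar1, Tmed, Arf1 to Arf6 or Trappc, and the 9 coatomer genes Copa, Copb1, Copb2, Cope, Copg1, Copg2, Copz1, Copz2 and Arcn1, with the Sec14l genes left out. This gave 63 genes of 18193 that had a probe set with a single gene symbol. Messenger RNA was measured on 8 one-colour oligonucleotide arrays, 4 of blastocysts and 4 of 8-cell embryos. Both stages were wild-type whole embryos of B6D2F1 females mated to B6D2F1 males, collected as zygotes and cultured in modified KSOM, an embryo culture medium. Blastocysts were taken at embryonic day 4.5 (120 hours after human chorionic gonadotropin, the hormone that times ovulation) and 8-cell embryos at day 2.5 (66 hours). The labels number 4 replicates per stage without saying how many embryos each held or whether they were separate pools, so a p-value reflects only how much these arrays varied, which may be technical.

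Proteins destined for membranes, for the Golgi or for secretion enter the endoplasmic reticulum through the SEC61 channel, where signal peptidase trims them. COPII coats, started by the GTPase SAR1, bud vesicles that carry them towards the Golgi, and COPI coats, started by ARF GTPases, return escaped residents and recycled receptors. The p24 proteins (Tmed genes) sort cargo in both directions, SEC22 proteins take part in vesicle fusion, and the TRAPP complexes tether vesicles and activate RAB GTPases. Between the 8-cell stage and the blastocyst the embryo compacts, forms a polarised outer epithelium, the trophectoderm, and sets aside an inner cell mass.

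The deposited values were linear signal intensities with a trimmed mean of 500 on every array, and array medians lay between 47.1 and 56.0 in blastocysts and between 50.8 and 56.0 in 8-cell embryos. Correlations between arrays were 0.982 to 0.988 within blastocysts, 0.977 to 0.981 within 8-cell embryos and 0.752 to 0.780 between the stages. Lineage markers followed the stage labels: 6 of 6 trophectoderm genes were higher in blastocysts (summed signal 73369 to 82518, against 2997 to 3489 in 8-cell embryos) and 6 of 6 oocyte and 8-cell genes were lower (475 to 768, against 31957 to 39566). Of the other lineages, 4 of 6 primitive endoderm genes and 3 of 4 epiblast genes were higher in blastocysts, with 2 and 1 lower. The summed signal of 4 matched cumulus and granulosa cell genes was 436 to 498 in blastocysts, against 6537 to 10200.2 in 8-cell embryos, almost all of the 8-cell sum being Amhr2, at 282 ± 36.8 in blastocysts and 8118 ± 1598 in 8-cell embryos (SD, n = 4 each). The other genes of that list differed little or the other way, with Foxl2 at 121 in blastocysts and 174 in 8-cell embryos (lower, adjusted p = 0.0335) and Fshr at 38.6 and 30.4 (adjusted p = 0.333). Has2, at 23.4 and 8.97, and the 3 matched blood genes stayed under the filter on dim signals (summed blood signal 35.7 to 94.0 in blastocysts, against 24.9 to 49.8 in 8-cell embryos). The log2 signal of the 3′ over the 5′ Actb control probe sets also differed, at 0.82 ± 0.11 in blastocysts and 2.42 ± 0.19 in 8-cell embryos (SD, n = 4 each), as did that of Gapdh, at 1.36 ± 0.11 and 2.32 ± 0.26. The part of this difference, or of the marker differences, in the results on secretory genes was not tested. In whole embryos, fewer cells of a type and less RNA per cell cannot be told apart, and culture time differed with the stage. The deposited numbers also differ in form: 8-cell values are all rounded to 1 decimal or none, whereas in blastocysts only 0.297 to 0.375% of an array's values are, and this difference in how the files were written cannot be told apart from the stage.

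Secretory genes were for the most part higher in blastocysts. With the brightest probe set of each gene, 62 of the 63 passed a filter that kept a gene where its signal exceeded the 40th percentile of an array for 4 or more of the 8. The 1 gene that did not, the p24 gene Tmed11, read 33.5, 2.27, 2.12 and 22.5 on the blastocyst arrays, against 3.30, 26.3, 8.50 and 11.3 on the 8-cell arrays. Of the 62, 39 were higher in blastocysts, 7 were lower and 16 did not pass the test (limma on log2(signal + 16), Benjamini-Hochberg adjustment over 13276 genes, threshold 0.05). The median difference was 0.59 on the log2 scale, against 0.02 over all tested genes, whereas the median size regardless of direction was 0.78, against 0.90.

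These counts stand beside a background in which most genes differed between the stages. Of the secretory genes 74.2% were called in either direction, and of all tested genes 71.7%. Calls of higher signal in blastocysts made up 62.9% of the secretory genes and 37.5% of all tested genes, and calls of lower signal 11.3% of the secretory genes and 34.2% of all. By group, calls in either direction were below the background for translocon and signal peptidase (57.1%), ARF, SEC22 and p24 genes (66.7% each). They were above it for COPII (76.9%), COPI (77.8%) and TRAPP (85.7%). Calls of higher signal made up 42.9% of translocon and signal peptidase, 44.4% of p24 and 50% of ARF genes. In COPII they made up 61.5%, in SEC22 66.7%, in COPI 77.8% and in TRAPP 85.7%. The arrays of the stages did not overlap for 44 of the 62 secretory genes (71.0%) and for 66.8% of all tested genes. A rise of at least 2-fold was called for 21 secretory genes (33.9%) and for 25.4% of all tested genes, and a fall of at least 2-fold for 4 secretory genes (6.45%) and for 20.4% of all. Fold values here compare signal + 16 and understate the change of dim genes. Among the genes that passed the filter, 5 were under the 40th percentile on some arrays: Trappc6a (above it on 4 blastocyst arrays and 1 8-cell array), Copz2 (4 and 2), Tmed2 (2 and 2), Tmed6 (2 and 4) and Sec16b (2 and 4).

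**Figure D1:**
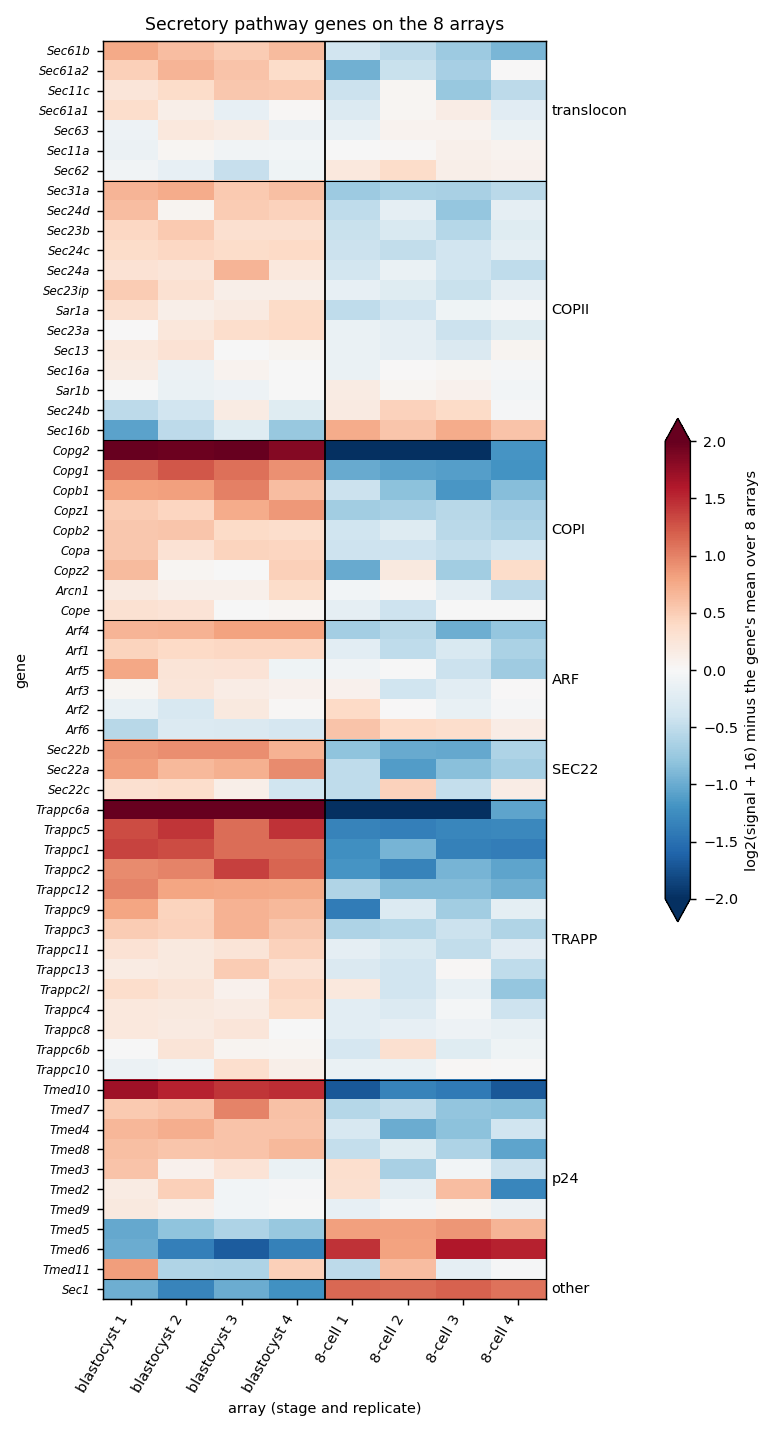
Each row is 1 of the 63 secretory genes and each column an array, with the 4 blastocyst arrays left of the 4 8-cell arrays. Colour gives log2(signal + 16) minus the gene's mean over the 8 arrays, and colours stop changing beyond 2 in either direction. Most rows are red in blastocysts, with Trappc6a, Copg2 and Tmed10 the deepest, and Sec16b, Arf6, Tmed5, Tmed6 and Sec1 show the opposite order.

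**Figure D2:**
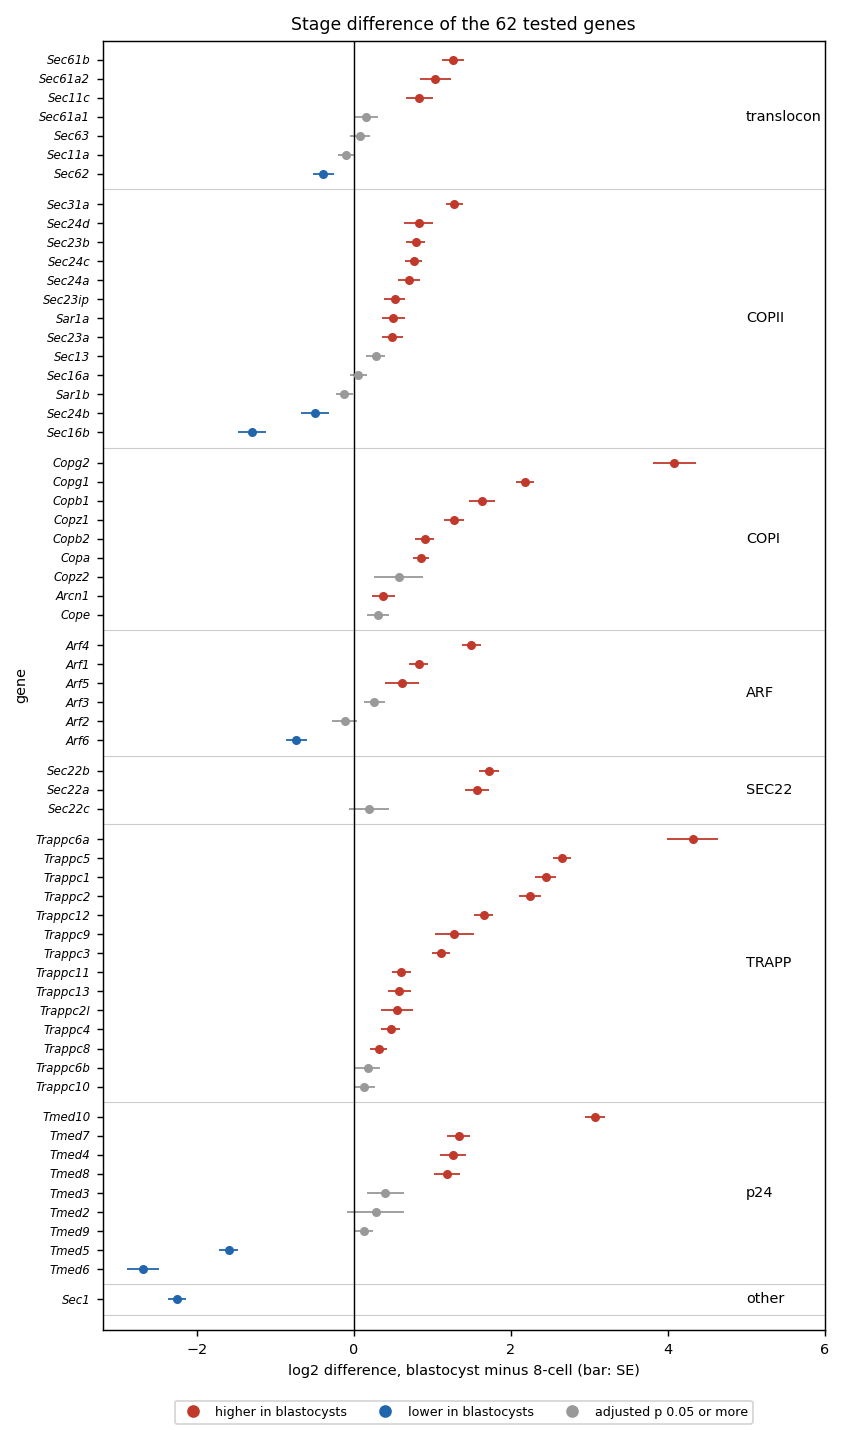
The log2 difference of each of the 62 tested genes, blastocyst minus 8-cell, is plotted on the horizontal axis with its standard error as a bar, by functional group. Red points are the 39 genes higher in blastocysts, blue points the 7 lower ones and grey points the 16 that did not pass. Values run between -2.69 for Tmed6 and 4.32 for Trappc6a.

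Promoter sequences of the secretory genes were also looked up, and a link between them and the stage differences was not tested. Of the 63 genes 52 had an entry in a RefSeq table of GRCm38.p6 promoters, 250 bases before to 50 after the start of transcription. These were searched on both strands for 2 sequences tied to the unfolded protein response, the programme that raises secretory capacity: the UPR element, searched as TGACGTGG, and the ER stress response element. The letters TGACGTGG were found near the start of 6 of the 52 genes (11.5%), and in 193 of all 27025 genes in the table (0.714%). The ER stress response element was found in 0 of the 52 and in 0.137% of all genes. The 27025 genes were not limited to those tested on the arrays, so these shares compare unlike sets of genes. The 6 genes are shown with 80 bases around the match, 5′ to 3′ on the strand of the gene, with the match in capitals, since they include 3 genes of the COPII coat, 2 of COPI and the GTPase that recruits COPI. The windows are chr11:59228203-59228282 (minus strand) for Arf1, chr7:114254665-114254744 (minus strand) for Copb1, chr9:98563688-98563767 (plus strand) for Copb2, chr1:157506716-157506795 (plus strand) for Sec16b, chr12:59011968-59012047 (minus strand) for Sec23a and chr3:123267434-123267513 (plus strand) for Sec24d.
Arf1: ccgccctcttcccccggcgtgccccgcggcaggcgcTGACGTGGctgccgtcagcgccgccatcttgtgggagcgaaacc
Copb1: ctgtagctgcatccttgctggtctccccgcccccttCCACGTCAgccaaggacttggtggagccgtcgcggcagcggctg
Copb2: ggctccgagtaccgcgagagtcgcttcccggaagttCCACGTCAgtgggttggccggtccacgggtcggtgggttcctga
Sec16b: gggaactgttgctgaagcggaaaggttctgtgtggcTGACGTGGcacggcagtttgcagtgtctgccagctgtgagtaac
Sec23a: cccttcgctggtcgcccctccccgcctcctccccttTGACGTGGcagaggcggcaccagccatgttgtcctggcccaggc
Sec24d: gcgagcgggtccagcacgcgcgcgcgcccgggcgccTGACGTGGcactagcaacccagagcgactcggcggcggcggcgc
In Copb1 and Copb2 the match lies on the strand opposite to the gene and reads CCACGTCA. Of these 6 genes Arf1, Copb1, Copb2, Sec23a and Sec24d were higher in blastocysts and Sec16b was lower. Calls of higher signal made up 62.9% of all the tested secretory genes and 37.5% of all tested genes. A match describes the letters of the window and does not show binding.

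Among the genes of protein entry, 3 of 7 translocon and signal peptidase genes were higher in blastocysts, 1 was lower and 3 did not pass (median difference 0.16). Sec61b, the small membrane-anchored subunit of the SEC61 channel, read 6266, 5679.6, 5256 and 5749 on the blastocyst arrays, against 2835, 2561, 2215 and 1958 on the 8-cell arrays (log2 difference 1.27, SE 0.14, adjusted p = 2.62e-05). All 4 blastocyst arrays lay above every 8-cell array, by 2.41-fold on average. The channel-forming subunit Sec61a1 read 9842, 8358, 6910.0 and 7896 on the blastocyst arrays, against 6412, 7931, 8556 and 6626 on the 8-cell arrays (log2 difference 0.16, SE 0.15, adjusted p = 0.37), so the stages overlapped and no difference passed the test. Its relative Sec61a2 read 231, 267, 246 and 211 on the blastocyst arrays, against 74.7, 114, 95.4 and 162 on the 8-cell arrays (log2 difference 1.04, SE 0.20, adjusted p = 0.00103), and was higher without overlap.

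Signal peptidase has 2 alternative catalytic subunits. Sec11c read 2056, 2250.4, 2543 and 2505 on the blastocyst arrays, against 1287, 1793, 1021 and 1211 on the 8-cell arrays (log2 difference 0.83, adjusted p = 0.00189), whereas Sec11a read 7529, 8369.6, 7743 and 7807 on the blastocyst arrays, against 8076, 8261, 8724 and 8549 on the 8-cell arrays (log2 difference -0.10, adjusted p = 0.421). Sec11c was thus higher in blastocysts and Sec11a overlapped between the stages. Sec62 and Sec63 form a complex beside the channel that helps some proteins enter. Sec62 read 4298, 4001, 3262 and 4251 on the blastocyst arrays, against 5243, 5839, 4871 and 4773 on the 8-cell arrays (log2 difference -0.39, SE 0.13, adjusted p = 0.0233) and was lower in blastocysts, while Sec63 read 1097, 1372, 1326 and 1087 on the blastocyst arrays, against 1065, 1238, 1237 and 1083 on the 8-cell arrays (log2 difference 0.07, adjusted p = 0.629). The call of Sec62 was lost under quantile (-0.30, adjusted p = 0.0618), median (-0.33, adjusted p = 0.0598) and spike-in scaling (-0.04, adjusted p = 0.891). It was also lost without 8-cell replicate 2 (adjusted p = 0.0619) and without blastocyst replicate 3 (adjusted p = 0.0655), and with the probe sets of the gene averaged (adjusted p = 0.544). Of the 6 Sec61a1 probe sets 4 were called higher, and the same averaging gave Sec61a1 a log2 difference of 0.63 (adjusted p = 0.00133) and Sec63 one of 1.33.

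Of 13 tested COPII genes, 8 were higher in blastocysts, 2 were lower and 3 did not pass (median difference 0.50), and only 1 rise reached 2-fold. That gene was Sec31a, the rod of the outer cage, with 2329, 2431, 2076 and 2187 on the blastocyst arrays, against 867, 926, 910.3 and 982 on the 8-cell arrays (log2 difference 1.28, SE 0.11, adjusted p = 4.17e-06), a 2.42-fold rise with no overlap. Sec13, its partner in the cage, read 3899, 4121, 3355 and 3499 on the blastocyst arrays, against 3077, 2958, 2762 and 3479 on the 8-cell arrays (log2 difference 0.28, SE 0.12, adjusted p = 0.0718), and the stages overlapped. Without 8-cell replicate 4 its difference was 0.34 and passed (adjusted p = 0.0375). It also passed under quantile scaling (adjusted p = 0.0229), spike-in scaling (adjusted p = 0.0307) and trend with robust estimation (adjusted p = 0.0253).

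Both SEC23 genes of the inner coat were higher, each by under 2-fold. Sec23b, which with Sec23a stimulates SAR1 to hydrolyse GTP, read 5217, 5623, 4846 and 4865 on the blastocyst arrays, against 2844, 3147, 2608 and 3286 on the 8-cell arrays (log2 difference 0.79, adjusted p = 0.000236). Sec23a read 1958, 2263, 2473 and 2576 on the blastocyst arrays, against 1768, 1719, 1444 and 1633 on the 8-cell arrays (log2 difference 0.49, adjusted p = 0.00702). In both, every blastocyst array was above every 8-cell array. SAR1 itself is encoded by a pair of genes: Sar1a read 5535, 4780.2, 5031 and 5802 on the blastocyst arrays, against 3116, 3383, 4167 and 4364 on the 8-cell arrays (log2 difference 0.50, adjusted p = 0.0108), and Sar1b read 6260.2, 5781, 5915 and 6302 on the blastocyst arrays, against 7110.0, 6531, 6683 and 6121 on the 8-cell arrays (log2 difference -0.12, adjusted p = 0.322). Sar1a was higher on its brightest probe set, by 1.41-fold, while its other one was called lower (log2 difference -1.31, adjusted p = 4.3e-05), and Sar1b overlapped between the stages.

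The SEC24 proteins bind cargo and are encoded by 4 genes, of which 3 were higher and 1 was lower on their brightest probe sets. Sec24c read 4898, 5050.2, 4898 and 5000.4 on the blastocyst arrays, against 2806, 2688, 2902 and 3304 on the 8-cell arrays (log2 difference 0.76, adjusted p = 0.000156). Sec24a read 656, 634, 864 and 621 on the blastocyst arrays, against 411, 488, 401 and 373 on the 8-cell arrays (log2 difference 0.70, adjusted p = 0.00168). Sec24d read 337, 224, 313 and 303 on the blastocyst arrays, against 147, 188, 118 and 188 on the 8-cell arrays (log2 difference 0.82, adjusted p = 0.00241), and none of these 3 genes overlapped between the stages. Sec24b went the other way, with 546, 599.9, 883 and 665 on the blastocyst arrays, against 893, 1095, 1029 and 773 on the 8-cell arrays (log2 difference -0.49, SE 0.18, adjusted p = 0.0297), and here the highest blastocyst array lay within the 8-cell range. Its call was lost without blastocyst replicate 1, 2 or 4 or without 8-cell replicate 2 or 3, with an adjusted p of 0.0546 to 0.0821.

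SEC16 proteins organise the exit sites where COPII assembles. Sec16b read 16.8, 32.0, 42.4 and 24.9 on the blastocyst arrays, against 98.9, 85.1, 99.3 and 86.3 on the 8-cell arrays (log2 difference -1.30, SE 0.18, adjusted p = 0.000107), 2.46-fold higher in 8-cell embryos, with 2 blastocyst arrays under the 40th percentile. Sec16a read 2703, 2222, 2542 and 2399.7 on the blastocyst arrays, against 2197, 2428, 2477 and 2369 on the 8-cell arrays (log2 difference 0.06, adjusted p = 0.671) and overlapped. The last gene of the group, Sec23ip, whose protein binds SEC23 at exit sites, read 2505, 2165, 1913 and 1902 on the blastocyst arrays, against 1563, 1486, 1288 and 1544 on the 8-cell arrays (log2 difference 0.52, adjusted p = 0.00576) and was higher.

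In the COPI coatomer 7 of 9 genes were higher in blastocysts, none was lower and 2 did not pass (median difference 0.90). The largest differences were those of the gamma subunits, which link the coat to its GTPase and are encoded by a pair of genes. Copg2 read 1360.3, 1231, 1515 and 1131 on the blastocyst arrays, against 45.5, 59.0, 39.8 and 126 on the 8-cell arrays (log2 difference 4.08, SE 0.27, adjusted p = 8.08e-07), a 17.0-fold rise, and every 8-cell array was above the 40th percentile. Copg1 read 3183, 3493, 3194 and 2802 on the blastocyst arrays, against 727, 689, 680.1 and 635 on the 8-cell arrays (log2 difference 2.19, SE 0.11, adjusted p = 2.05e-07), a 4.55-fold rise. In both genes the stages were far apart relative to the spread within a stage.

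The beta subunit gene Copb1 came next, with 1540.2, 1563, 1777 and 1345 on the blastocyst arrays, against 642, 487, 383 and 479 on the 8-cell arrays (log2 difference 1.63, adjusted p = 1.48e-05). Copz1, a zeta subunit, read 3702, 3505, 4346 and 4774 on the blastocyst arrays, against 1598, 1653, 1770.2 and 1638 on the 8-cell arrays (log2 difference 1.28, adjusted p = 1.4e-05). Both were at least 2-fold higher with no overlap, but the only other Copz1 probe set, used when IDs ending in _x_at, _s_at or _a_at were left out, gave a difference of -0.50 (adjusted p = 0.426). That probe set was dim, at 32.5 ± 27.7 in blastocysts and 53.05 ± 39.6 in 8-cell embryos (SD, n = 4 each). Copz2, the other zeta gene, read 59.3, 33.7, 32.3 and 51.3 on the blastocyst arrays, against 8.10, 39.6, 14.1 and 46.3 on the 8-cell arrays (log2 difference 0.57, adjusted p = 0.129), and passed without 8-cell replicate 4 (log2 difference 0.78, adjusted p = 0.0441). Copa and Copb2, whose proteins form the outer part of the coat and bind retrieval signals, were higher by similar amounts. Copa read 7281, 6103, 6794 and 6679 on the blastocyst arrays, against 3725, 3720.4, 3573 and 3791 on the 8-cell arrays (log2 difference 0.85, adjusted p = 5.82e-05). Copb2 read 4841, 4904, 4337 and 4244 on the blastocyst arrays, against 2541, 2787, 2289 and 2182 on the 8-cell arrays (log2 difference 0.90, adjusted p = 0.000109). Each was a little under 2-fold higher without overlap, and Copa did not pass when its 2 probe sets were averaged (adjusted p = 0.394).

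On their brightest probe sets the delta and epsilon subunits were close to the threshold. Arcn1, the delta subunit, read 5675, 5393, 5401 and 6479 on the blastocyst arrays, against 4837, 5100.0, 4431 and 3482 on the 8-cell arrays (log2 difference 0.37, SE 0.15, adjusted p = 0.0437). Its call was lost without any 1 of the blastocyst arrays and without 8-cell replicate 3 or 4 (adjusted p = 0.0611 to 0.107). The other 2 Arcn1 probe sets were higher by more (log2 difference 0.93, adjusted p = 0.000568, and log2 difference 1.34, adjusted p = 5.14e-05), and the mean of its probe sets gave 0.88 (adjusted p = 0.000124). Cope, the epsilon subunit, read 3218, 3127, 2589 and 2664 on the blastocyst arrays, against 2304, 1950.0, 2578 and 2581 on the 8-cell arrays (log2 difference 0.30, adjusted p = 0.0761), with all blastocyst arrays above the 8-cell arrays by a narrow margin. Cope passed under quantile scaling (adjusted p = 0.0489), spike-in scaling (adjusted p = 0.017) and trend with robust estimation (adjusted p = 0.0293).

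Among the ARF GTPases 3 of 6 were higher in blastocysts, 1 was lower and 2 did not pass (median difference 0.44). Arf1, which recruits COPI to Golgi membranes, read 17851, 17273, 17449.5 and 17436 on the blastocyst arrays, against 11379, 9284, 10642 and 8473 on the 8-cell arrays (log2 difference 0.82, SE 0.12, adjusted p = 0.000209). Every blastocyst array of Arf1 was above every 8-cell array, by 1.77-fold on average. Its close relatives did not pass: Arf3 read 2248, 2584, 2429 and 2331 on the blastocyst arrays, against 2330.0, 1664, 1880.3 and 2196 on the 8-cell arrays (log2 difference 0.26, adjusted p = 0.114), and Arf2 read 681, 604, 871 and 771 on the blastocyst arrays, against 1001, 764, 678 and 748 on the 8-cell arrays (log2 difference -0.12, adjusted p = 0.528), both with overlap.

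Arf4 and Arf5 form a second class of the family. Arf4 read 4876, 4935, 5298 and 5328 on the blastocyst arrays, against 1879, 2057, 1540.5 and 1772 on the 8-cell arrays (log2 difference 1.49, SE 0.12, adjusted p = 3.16e-06), a 2.82-fold rise without overlap. Arf5 read 225, 154, 155 and 117 on the blastocyst arrays, against 118, 124, 88.3 and 70.7 on the 8-cell arrays (log2 difference 0.61, adjusted p = 0.0278), and 1 blastocyst array lay within the 8-cell range. The call of Arf5 was lost without blastocyst replicate 1 or 3 or without 8-cell replicate 3 or 4 (adjusted p = 0.0515 to 0.0739). Arf6, which acts mainly at the plasma membrane and on endosomes, was lower in blastocysts. It read 4517, 5494, 5482 and 5259 on the blastocyst arrays, against 9972, 8821, 8497 and 7366 on the 8-cell arrays (log2 difference -0.73, SE 0.13, adjusted p = 0.000692), 1.66-fold higher in 8-cell embryos and without overlap. With the Arf6 probe sets averaged, the difference was -0.10 (adjusted p = 0.579), and under scaling to the spike-in controls it was -0.38 (adjusted p = 0.171).

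Of the SEC22 genes 2 of 3 were higher and 1 did not pass (median difference 1.57). Sec22b, a SNARE of the vesicles between the endoplasmic reticulum and the Golgi, read 2784, 2889, 2897 and 2459 on the blastocyst arrays, against 859, 742, 734 and 978 on the 8-cell arrays (log2 difference 1.72, SE 0.13, adjusted p = 2e-06). Its relative Sec22a read 749.7, 659, 684 and 806 on the blastocyst arrays, against 284, 182, 223 and 252 on the 8-cell arrays (log2 difference 1.57, SE 0.15, adjusted p = 9.63e-06). Sec22b was 3.30-fold and Sec22a 2.97-fold higher with no overlap, while Sec22c read 212, 216, 183 and 122 on the blastocyst arrays, against 113, 235, 116 and 186 on the 8-cell arrays (log2 difference 0.19, adjusted p = 0.525) and overlapped.

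The TRAPP tether had the most calls in 1 direction: 12 of 14 genes were higher in blastocysts, none was lower and 2 did not pass (median difference 0.86). Core subunits, shared by the TRAPP complexes, held the 4 largest differences. Trappc6a read 867, 803, 810.3 and 841 on the blastocyst arrays, against 19.9, 21.0, 10.5 and 75.4 on the 8-cell arrays (log2 difference 4.32, SE 0.33, adjusted p = 1.82e-06), and only 1 of those 8-cell arrays was above the 40th percentile. Its size is therefore uncertain: the log2 difference was 5.04 with 1 added to the signal, 3.27 with 64 and 2.87 with its probe sets averaged. Its paralogue Trappc6b read 1815, 2189.8, 1896 and 1876 on the blastocyst arrays, against 1437, 2287, 1543 and 1719 on the 8-cell arrays (log2 difference 0.17, adjusted p = 0.355), with overlap, so the pair differed in size of change. Trappc5 read 1099.7, 1209, 963 and 1217 on the blastocyst arrays, against 163, 160.0, 168 and 168 on the 8-cell arrays (log2 difference 2.65, SE 0.12, adjusted p = 8.27e-08). Trappc1 read 3359.7, 3266, 2851 and 2865 on the blastocyst arrays, against 554, 678, 502 and 495 on the 8-cell arrays (log2 difference 2.44, SE 0.14, adjusted p = 2.81e-07). Trappc2 read 714, 734, 960.4 and 835 on the blastocyst arrays, against 152, 134, 183 and 166 on the 8-cell arrays (log2 difference 2.24, SE 0.14, adjusted p = 6.13e-07). Each of these 3 was over 4-fold higher, and within a stage the arrays differed far less than the stages did. Trappc3, another core subunit, read 4562, 4415, 5206 and 4674 on the blastocyst arrays, against 2088, 2146, 2363 and 2095 on the 8-cell arrays (log2 difference 1.11, adjusted p = 1.21e-05) and was 2.16-fold higher.

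The remaining core subunits differed less. Trappc4 read 3167, 3108, 3039 and 3500.1 on the blastocyst arrays, against 2351, 2248, 2641 and 2047 on the 8-cell arrays (log2 difference 0.47, adjusted p = 0.00604). Trappc2l read 2561, 2407, 2134 and 2685 on the blastocyst arrays, against 2325, 1537, 1822 and 1167 on the 8-cell arrays (log2 difference 0.55, adjusted p = 0.0327), with 1 8-cell array inside the blastocyst range. The call of Trappc2l was lost without blastocyst replicate 1, 2 or 4 or without 8-cell replicate 2 or 4 (adjusted p = 0.0601 to 0.0758). Trappc9 and Trappc10 belong to the TRAPPII complex. Trappc9 read 647, 506, 609 and 586 on the blastocyst arrays, against 130.1, 303, 222 and 321 on the 8-cell arrays (log2 difference 1.28, adjusted p = 0.00114) and was higher on this probe set, but another was called lower (log2 difference -0.80, adjusted p = 0.031) and averaging them ended the call (0.25, adjusted p = 0.203). Trappc10 read 1949, 2011, 2678 and 2312 on the blastocyst arrays, against 1923, 1936, 2158 and 2098 on the 8-cell arrays (log2 difference 0.13, adjusted p = 0.399) and overlapped.

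TRAPPIII is marked by 4 further subunits, and all 4 were higher in blastocysts on their brightest probe sets. Trappc12 read 787, 687, 675 and 666 on the blastocyst arrays, against 252, 206, 206 and 192 on the 8-cell arrays (log2 difference 1.65, adjusted p = 1.77e-06). Trappc11 averaged 1623 ± 134 in blastocysts and 1063 ± 101 in 8-cell embryos (SD, n = 4 each), with log2 difference 0.60, adjusted p = 0.00139. Trappc13 averaged 904 ± 101 in blastocysts and 605 ± 102 in 8-cell embryos (SD, n = 4 each), with log2 difference 0.58, adjusted p = 0.00571. Only Trappc12 was over 2-fold higher, and none of these overlapped between the stages. The other 2 probe sets of Trappc13 were called lower (log2 difference -2.21, adjusted p = 4.41e-07, and log2 difference -0.41, adjusted p = 0.0195), the mean of its probe sets gave -0.68 (adjusted p = 0.000237), and quantile scaling ended the call of the brightest one (adjusted p = 0.0553). Trappc8 read 4971, 4886, 5064 and 4286 on the blastocyst arrays, against 3698, 3821, 4013 and 3854 on the 8-cell arrays (log2 difference 0.32, SE 0.11, adjusted p = 0.0244), a small rise without overlap. Its call was lost without blastocyst replicate 1, 2 or 3 or without 8-cell replicate 1 (adjusted p = 0.0579 to 0.0642).

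The p24 group, taken as every gene with a Tmed symbol, differed in both directions. Its 9 tested genes held 4 that were higher in blastocysts, 2 that were lower and 3 that did not pass (median difference 0.40). All 6 called genes differed by more than 2-fold. Tmed10, the delta p24 protein and a part of COPI and COPII vesicles, read 2156, 1945, 1794 and 1862 on the blastocyst arrays, against 192, 251, 236 and 191 on the 8-cell arrays (log2 difference 3.07, SE 0.13, adjusted p = 7.25e-08), an 8.42-fold rise. Tmed7 averaged 2117 ± 351 in blastocysts and 826 ± 94.1 in 8-cell embryos (SD, n = 4 each), with log2 difference 1.33, adjusted p = 2.42e-05. Tmed4 read 3181, 3324, 2992 and 2980.2 on the blastocyst arrays, against 1605, 1006, 1133 and 1525 on the 8-cell arrays (log2 difference 1.26, adjusted p = 8.13e-05). These 3 genes and Tmed8 (log2 difference 1.19, adjusted p = 0.000146) were higher without overlap, although Tmed4 and Tmed8 did not pass when their probe sets were averaged (adjusted p = 0.143 and 0.271). The second Tmed4 probe set was under the filter on dim signals, at 6.61 in blastocysts and 24.25 in 8-cell embryos.

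Tmed5 and Tmed6, which belong with Tmed3 and Tmed7 to the gamma branch of the family, were lower in blastocysts. Tmed5 read 2055, 2395, 2736 and 2459 on the blastocyst arrays, against 7374, 7373, 7768 and 6749.5 on the 8-cell arrays (log2 difference -1.60, SE 0.12, adjusted p = 2.09e-06), 3.03-fold higher in 8-cell embryos. Tmed6 read 43.5, 29.9, 21.4 and 30.7 on the blastocyst arrays, against 308, 191, 343 and 329.7 on the 8-cell arrays (log2 difference -2.69, SE 0.21, adjusted p = 2.2e-06), with 2 blastocyst arrays under the 40th percentile. In neither gene did the stages overlap, and Tmed6 had the lowest difference of all 62 genes. Tmed9 read 6603, 6184, 5554 and 5741 on the blastocyst arrays, against 5154, 5552, 5998 and 5312 on the 8-cell arrays (log2 difference 0.13, adjusted p = 0.334), and Tmed3 read 227, 158, 183 and 135 on the blastocyst arrays, against 192, 88.4, 143 and 106 on the 8-cell arrays (log2 difference 0.40, adjusted p = 0.15). Tmed3 passed without 8-cell replicate 1 (log2 difference 0.58, adjusted p = 0.0348). The probe set of Tmed2, the beta p24 protein, was dim, with 33.7, 45.9, 26.9 and 27.8 on the blastocyst arrays, against 39.6, 23.3, 52.4 and 2.10 on the 8-cell arrays (log2 difference 0.27, adjusted p = 0.523), and without 8-cell replicate 4 its difference was -0.11.

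One further gene taken by its symbol fell outside these groups. Sec1 encodes a fucosyltransferase and is no part of the vesicle coats. It read 84.5, 63.2, 83.0 and 69.2 on the blastocyst arrays, against 421, 412, 429.8 and 402 on the 8-cell arrays (log2 difference -2.26, SE 0.12, adjusted p = 2.1e-07) and was lower in blastocysts without overlap. Without it, the genes higher in blastocysts were still 39 and the lower ones 6.

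Several subunits are encoded by paralogues, and the ratio of the pair on each array was compared between the stages. Of 23 pairs listed, 22 had both genes past the filter, and for 13 the ratio differed with p = 0.0286, the smallest p an exact two-sided permutation test of 4 against 4 arrays can give (adjusted p = 0.0484 over the 22 pairs). In these 13 pairs the ratios of the stages did not overlap. Since all 13 have the same p, they pass or fail the adjustment together, and pairs that share a gene are not independent. Taken singly, 66.8% of all tested genes did not overlap between the stages. The share over pairs of unrelated genes was not computed, so the 13 of 22 is not shown to be particular to paralogues. A ratio within an array shows unequal change and not which gene moved. Trappc6a over Trappc6b was higher in blastocysts (difference in log2 ratio 4.15, SE 0.40), but its size is uncertain, since Trappc6a was above the 40th percentile on 1 8-cell array. Copg1 over Copg2 shifted by -1.90, SE 0.35, towards Copg2 in blastocysts. Both gamma genes rose, so the shift is a matter of degree.

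Pairs with an opposite call in each gene were found only in the SEC24 family, and all 3 involved Sec24b. The difference in log2 ratio was 1.20, SE 0.10 for Sec24a over Sec24b, -1.26, SE 0.23 for Sec24b over Sec24c and -1.32, SE 0.27 for Sec24b over Sec24d. These opposite calls rest on the brightest probe sets: the lower call of Sec24b was lost without any 1 of 5 arrays and under spike-in scaling (-0.14, adjusted p = 0.661), and with probe sets averaged Sec24b stood at 0.28 and Sec24c at -0.25. Ratios among Sec24a, Sec24c and Sec24d overlapped between the stages, with differences of -0.06, SE 0.18, -0.12, SE 0.20 and -0.06, SE 0.20 and an exact permutation p of 0.629 to 0.743. Shifts of the remaining called pairs were 0.62, SE 0.16 for Sar1a over Sar1b, 1.35, SE 0.22 for Sec16a over Sec16b and -0.93, SE 0.20 for Sec11a over Sec11c. Those of the SEC22 family were 1.38, SE 0.41 for Sec22a over Sec22c and 1.53, SE 0.28 for Sec22b over Sec22c. In the ARF and p24 families they were 0.94, SE 0.16 for Arf1 over Arf2, 0.57, SE 0.14 for Arf1 over Arf3 and 1.13, SE 0.20 for Tmed4 over Tmed9. These ratios too rest on the brightest probe sets. The other probe set of Sar1a was called lower (log2 difference -1.31), and the other one of Sec22c was called higher (log2 difference 1.21).

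The other tested pairs did not pass the threshold. For Sec23a over Sec23b the difference was -0.30, SE 0.14 (exact permutation p = 0.0857, adjusted p = 0.111), for Sec61a1 over Sec61a2 -0.88, SE 0.27 (exact permutation p = 0.0571, adjusted p = 0.0786) and for Arf4 over Arf5 0.88, SE 0.24 (exact permutation p = 0.0571, adjusted p = 0.0786). For Sec22a over Sec22b it was -0.15, SE 0.15 (exact permutation p = 0.343, adjusted p = 0.397), for Copz1 over Copz2 0.71, SE 0.38 (exact permutation p = 0.143, adjusted p = 0.175) and for Arf2 over Arf3 -0.38, SE 0.17 (exact permutation p = 0.0571, adjusted p = 0.0786). The adjusted p of the called pairs lay close to the threshold: 0 pairs passed without any 1 blastocyst array (lowest adjusted p = 0.0698, with 9 pairs at an unadjusted exact p under 0.05) or with the probe sets of each gene averaged (lowest adjusted p = 0.0629, with 10 pairs).

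**Figure D3:**
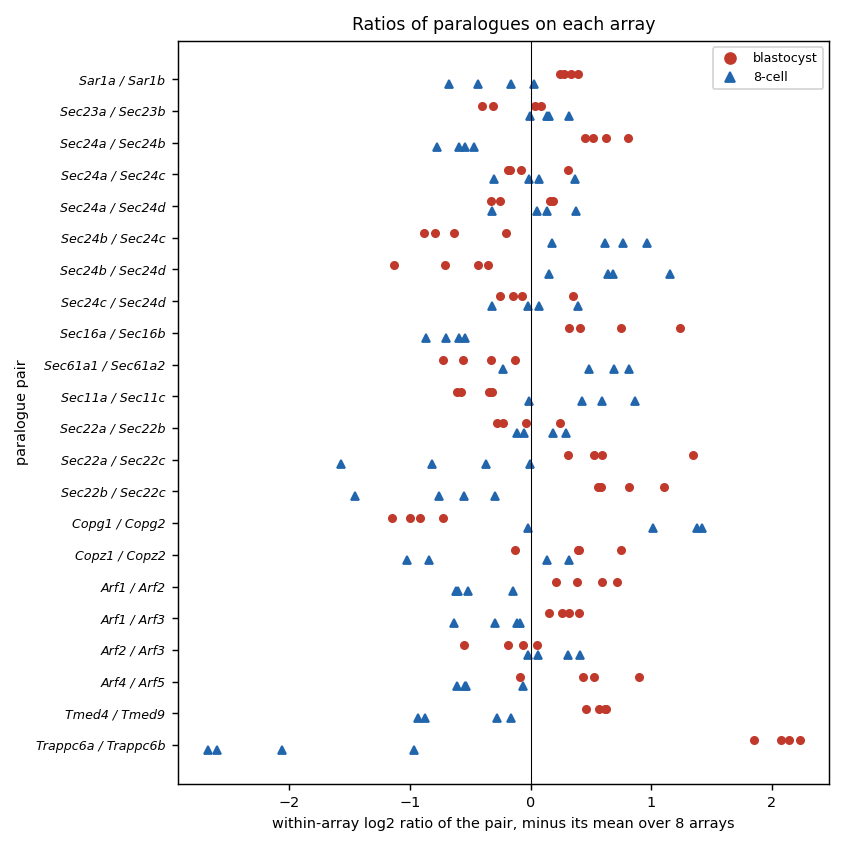
Each row is 1 of the 22 tested paralogue pairs. The horizontal axis gives the log2 ratio of the pair on each array, minus its mean over the 8 arrays, with blastocyst arrays as circles and 8-cell arrays as triangles. The circles and triangles are far apart for Trappc6a over Trappc6b and mix for pairs such as Sec24a over Sec24c.

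Of the 63 genes 39 had several probe sets, and for 35 at least 2 of them passed the filter. In 11 of these 35 genes all such probe sets were called in the same direction, in 14 some did not pass, in 3 none passed and in 7 they were called in opposite directions. Genes whose probe sets were all called the same way include Copg1, Copb2, Sec22b, Trappc5, Trappc6a, Tmed5 and Tmed7. The 7 genes with opposite calls were Sar1a, Sec24b, Sec24c, Sec62, Sec63, Trappc9 and Trappc13.

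Opposite calls reached large sizes in some of these genes. The brightest probe set of Sec63 showed no call, and another averaged 270.1 in blastocysts and 10.3 in 8-cell embryos (log2 difference 3.54, adjusted p = 3.16e-06), while a further one was lower (log2 difference -0.57, adjusted p = 0.00156). For Sec62, 4 probe sets were lower and 1 was higher (log2 difference 2.29, adjusted p = 6.15e-05). The second probe set of Sar1a averaged 1828 in blastocysts and 4520.4 in 8-cell embryos (log2 difference -1.31, adjusted p = 4.3e-05), opposite to the first. A second probe set of Trappc13 averaged 251 in blastocysts and 1213 in 8-cell embryos (log2 difference -2.21, adjusted p = 4.41e-07). In Sec24b (log2 difference 1.05, adjusted p = 0.00516), Sec24c (log2 difference -1.26, adjusted p = 0.0107) and Trappc9 (log2 difference -0.80, adjusted p = 0.031) the opposite probe set read under 100 on average in both stages. With the probe sets of a gene averaged, Sar1a (-0.40), Sec24b (0.28), Sec24c (-0.25) and Trappc13 (-0.68) turned direction on the log2 scale. For these genes the data give no single direction for the gene as a whole. The same averaging ended the calls of Sec23ip (adjusted p = 0.063), Sec24a (adjusted p = 0.0899), Trappc4 (adjusted p = 0.104) and Copz1 (adjusted p = 0.243), and gave Sec22c a call (log2 difference 0.70, adjusted p = 0.00538). It lowered the difference, with the call kept, to 0.52 for Arf4, 1.36 for Copg1, 0.68 for Sec22a and 0.86 for Trappc12. The averages took in every probe set of a gene, and each of these genes has one under the filter on dim signals. That of Copg1, for example, averaged 7.53 in blastocysts and 7.25 in 8-cell embryos.

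**Figure D4:**
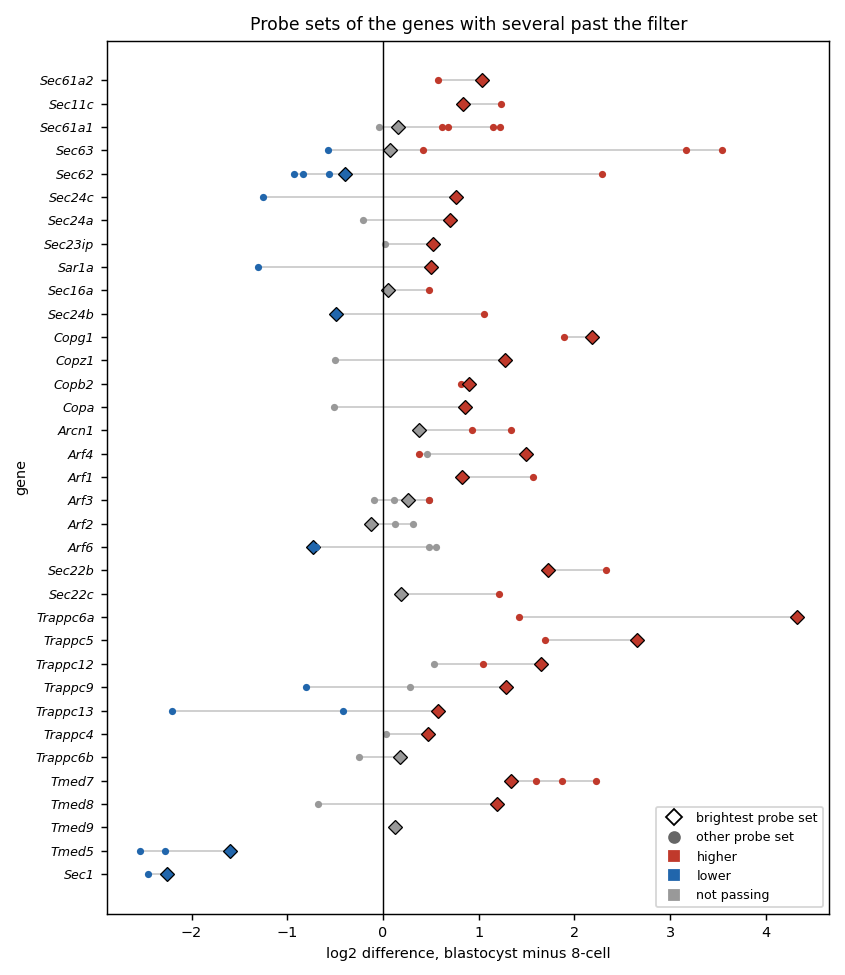
For each of the 35 genes with at least 2 probe sets past the filter, the horizontal axis gives the log2 difference of every such probe set, blastocyst minus 8-cell. Diamonds mark the brightest probe set and circles the others, red for higher, blue for lower and grey for not passing, with p-values adjusted over all probe sets past the filter, so that Arcn1 is grey here. Sec63, Sec62, Sar1a and Trappc13 have probe sets on both sides of 0.

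Other genes of the pathway, taken from 5 lists, were also more often higher than lower in blastocysts, beside the 37.5% and 34.2% of all tested genes. For these lists only the brightest probe set of each gene was looked at, so disagreement among probe sets was not examined. Of 16 genes that bring nascent proteins to the channel or work beside it, 10 were higher and 4 lower (median difference 0.35). The channel partners Tram1 (log2 difference 2.26, adjusted p = 6.7e-07) and Ssr1 (log2 difference 2.11, adjusted p = 4.81e-07) had the highest differences, and the signal recognition genes Srpr (log2 difference -0.81, adjusted p = 0.000134) and Srp9 (log2 difference -1.11, adjusted p = 2.04e-05) the lowest. Of 18 tested regulators and cargo receptors of COPII, 10 were higher and 3 lower (median difference 0.67). Lman1, a lectin that ferries glycoproteins out of the endoplasmic reticulum, averaged 2745 ± 189 in blastocysts and 329 ± 66.2 in 8-cell embryos (SD, n = 4 each), with log2 difference 3.02, adjusted p = 1.38e-07. Kdelr1, a receptor that COPI vesicles carry back with escaped residents, averaged 2296 ± 385 in blastocysts and 434 ± 145 in 8-cell embryos (SD, n = 4 each), with log2 difference 2.42, adjusted p = 1.95e-05. Tfg (log2 difference -0.62, adjusted p = 0.00114) and Ctage5 (log2 difference -1.33, adjusted p = 6.61e-06), which act at exit sites, were the lowest.

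Of 16 genes that switch ARF GTPases on or off, 9 were higher and 2 lower (median difference 0.85). Agap1 (log2 difference 2.60, adjusted p = 0.000428) and Arfgap3 (log2 difference 2.21, adjusted p = 2.91e-05) were the highest, although on the 8-cell arrays Agap1 exceeded the 40th percentile on 2 and Arfgap3 on 1, so that these sizes and their order are uncertain. The lower genes were Arfgap1 (log2 difference -0.42, adjusted p = 0.00501) and Cyth2 (log2 difference -0.93, adjusted p = 0.000167). Of 27 SNAREs and tethers of the endoplasmic reticulum and the Golgi, 14 were higher and 6 lower (median difference 0.42). Here Cog6 (log2 difference 2.88, adjusted p = 1.66e-07) and Nbas (log2 difference 2.12, adjusted p = 2.36e-05) had the highest values, and Cog8 (log2 difference -0.97, adjusted p = 0.000262) and Gorasp1 (log2 difference -2.95, adjusted p = 4.02e-07) the lowest. Subunits of the COG tether thus stood among both the highest and the lowest values.

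Of 8 tested transcription factors that set secretory capacity, 4 were higher in blastocysts, 2 were lower and 2 missed the threshold (median difference 0.33). Creb3l4 was left out by the filter, being above the 40th percentile on 0 blastocyst and 3 8-cell arrays. It read 7.59, 23.4, 3.13 and 26.0 on the blastocyst arrays, against 41.7, 40.1, 34.5 and 36.2 on the 8-cell arrays, without overlap. Xbp1, a factor of the unfolded protein response, read 8249, 7321, 8476 and 9269.9 on the blastocyst arrays, against 424, 209.8, 185 and 137 on the 8-cell arrays (log2 difference 5.14, SE 0.28, adjusted p = 2.66e-07), a 35.4-fold rise. Creb3l2, a relative that regulates COPII genes in cartilage, read 212, 306, 292 and 293 on the blastocyst arrays, against 8.80, 28.2, 29.5 and 31.8 on the 8-cell arrays (adjusted p = 2.21e-06). No 8-cell array of Creb3l2 was above the 40th percentile, so it passed the filter through the blastocysts alone, and against that level on each 8-cell array it was at least 5.82-fold higher. Atf6, another factor of the same response, read 263, 238, 223 and 293 on the blastocyst arrays, against 1257, 1082, 1163 and 961 on the 8-cell arrays (log2 difference -2.07, SE 0.13, adjusted p = 6.79e-07), and Atf6b averaged 141 ± 3.95 in blastocysts and 299 ± 42.7 in 8-cell embryos (SD, n = 4 each), with log2 difference -0.99, adjusted p = 6.73e-05. On their brightest probe sets Xbp1 was thus higher, and Atf6 and Atf6b lower, in the same blastocysts. Array signal of Xbp1 does not show whether its messenger RNA was spliced.

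**Figure D5:**
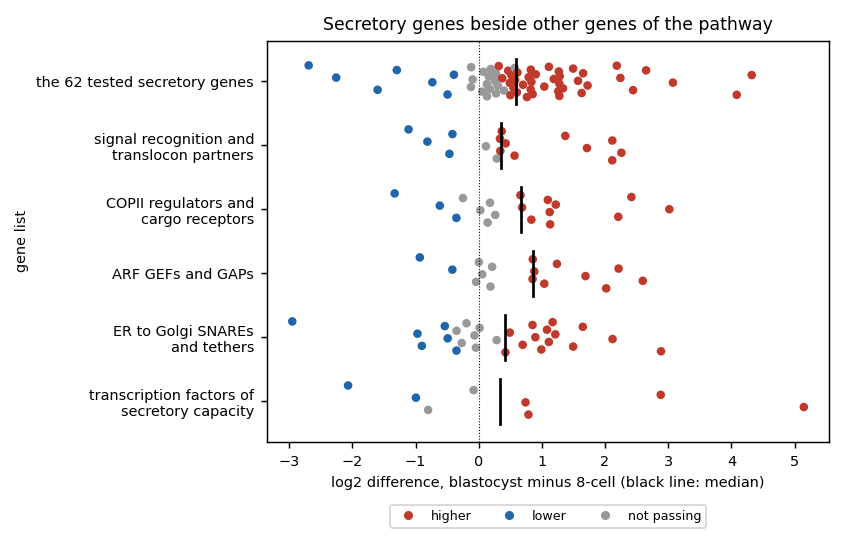
Each point is a gene, with the log2 difference, blastocyst minus 8-cell, on the horizontal axis and the gene lists down the page. Red points were higher in blastocysts, blue points lower and grey points did not pass, and black lines mark medians. The medians of the 62 secretory genes (0.59) and of the 5 other lists (0.33 to 0.85) lie right of 0, and Xbp1 is the point farthest right.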

How the data were processed

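Linear signal intensity for 45101 probe sets of whole mouse embryos was taken as deposited by the authors, with software not given in the sources used here. Per the labels' protocols, RNA was isolated with a small-sample kit, amplified with a small-sample labelling assay and biotinylated. Values became log2(signal + 16). The deposited scale was kept. Gene symbols came from the platform's annotation: 34945 probe sets had 1 symbol, 932 several, 9160 were not listed, and 64 controls were left out. For each gene the probe set with the highest mean was used. A gene was tested if its signal exceeded the 40th percentile of an array for 4 or more of the 8 (13276 genes), with limma 3.58.1 in R 4.3.3 (lmFit and eBayes, with the package data.table at version 1.17.8), blastocyst minus 8-cell, with Benjamini-Hochberg adjustment over all of them. Paralogue ratios were compared by an exact permutation test over 70 assignments of the arrays. No values of other series were used.

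The fit was first tested on simulated data with known answers. It called 9.81% of log2 differences of 0.5, 64% of those of 1, 93.2% of those of 2 and 0.0627% of unchanged genes. Far fewer genes differed there than between these stages, so these shares do not carry over to the arrays. The members, lists and tests were chosen with earlier results of these data known. Named in the text are, within each functional group, the 3 called members highest in difference and the 3 lowest, all genes of a paralogue pair, 15 fixed genes and, per other list, the 2 highest and 2 lowest called genes; further members were added to account for all of them. Alternatives were quantile, median and spike-in scaling, no filter or a stricter one (60th percentile), averaging the probe sets of a gene, dropping IDs that end in _x_at, _s_at or _a_at, trend with robust estimation, weighting of arrays, a replicate block, a pseudocount of 1 or 64, and leaving out each array in turn. Plots were made with Python 3.11.15, pandas 2.3.3 and matplotlib 3.10.9.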

Additional observations from a re-analysis of the deposited data

Results flagged for a closer look

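Among 126 groups of 4 arrays (63 genes at 2 stages), 2 held an array that stood apart from its group, where chance gives about 1 in 20. Sec24a read 864 in blastocyst replicate 3, against 621, 634 and 656 in the other blastocyst replicates. Tmed7 read 2641 in the same replicate, against 1896, 1952 and 1977 in the others.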

How the results depend on the processing

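The number of secretory genes higher in blastocysts was 39, and 31 (mean of probe sets) to 45 (spike-in scaling) under the alternatives. The number of lower genes was 7, and fell to 4 under spike-in scaling, which moved the median of the secretory genes to 0.94 and that of all tested genes to 0.37, and the share of higher calls to 91.8% among called secretory genes (84.8% on the deposited scale) and 66.8% among all called genes (52.3%). Leaving out 1 array gave 35 to 39 higher and 5 to 7 lower genes. Of the 46 called genes 40 kept the call with each array left out and 6 lost it for some array, and 3 others gained one. The count of paralogue pairs, 13, was 0 with the mean of probe sets, 0 without probe sets ending in _x_at, _s_at or _a_at, and 0 to 14 with 1 array left out. Under every alternative run for the gene, 24 higher and 4 lower genes kept their call. Of these, 7 of the 24 and 1 of the 4 lacked 1 alternative, since no probe set was left or the stricter filter dropped the gene. Among the genes that did not pass, 9 gained a call under some alternative and 7 under none. The direction reversed for Sar1a at -0.40 (adjusted p = 0.011), Sec24b at 0.28 (adjusted p = 0.133), Sec24c at -0.25 (adjusted p = 0.3) and Trappc13 at -0.68 (adjusted p = 0.000237) with the mean of probe sets, where the other probe sets differ in direction. Without those endings it also reversed for Copz1, at -0.50 (adjusted p = 0.426), on a dim probe set. Same-numbered arrays did not deviate together over the tested genes (correlations -0.04 to -0.02). Arrays with unlike numbers were not set beside them, so this cannot show whether equal numbers mark arrays handled together. A fit with a replicate block called 37 genes higher and 7 lower. Dim probe sets and 4 arrays per stage limit what could be detected.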
